A study of Saccharomyces cerevisiae with 6 samples.

Results

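The large subunit of the cytosolic ribosome of the yeast Saccharomyces cerevisiae was followed through its protein genes. Members were the rows whose standard name was RPL or RPP followed by the number and copy letter used for this subunit, and 82 of the 6611 rows of the deposited table matched. One of them, RPP1 (YHR062C), encodes a subunit of the RNase P and RNase MRP enzymes and no ribosomal protein. It had a level between 2.78 and 4.29 in the 6 libraries, under the minimum used below, and was set aside. The other 81 genes encode 46 proteins, of which 11 have a single gene and 35 have a pair of genes named A and B.

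Transcript levels were measured by RNA sequencing in 4 wild-type wine strains fermenting MS300, an artificial stand-in for the must of white wine. SO2, the sulfite preservative of winemaking, was either added at 25 mg/l or left out. The vineyard strain R008 was measured with SO2. The enological strains AWRI796 and VL3 were each measured with SO2 and without SO2, and the enological strain EC1118 was measured with SO2. All cultures were sampled in mid exponential phase, at a release of 6 g/l of CO2. Cultures of R008 and EC1118 without SO2 were not analysed here. Each group was 1 library, so no difference within a strain has a replicate check and none was tested.

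The large subunit holds the peptidyl transferase center, where amino acids are joined, the tunnel through which the new chain leaves, and the stalk that recruits the elongation factors. Its proteins are needed in near equal numbers. In yeast their genes are among the most actively transcribed, and are co-regulated through Rap1, Ifh1, Fhl1 and Sfp1 under TOR and protein kinase A signaling, so that their transcripts are abundant in fast growth and scarce under stress or starvation. Most pairs go back to the ancient duplication of the yeast genome, and their coding sequences have often stayed nearly alike.

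Values are deposited RPKM, reads scaled for gene length and for the mapped reads of the library, divided here by 1 scaling factor per library (0.880 to 1.15) and called levels. An RPKM is a share of a library, so fewer transcripts per cell and more of other transcripts cannot be told apart, and the sequencing depth is unknown. Differences are on log2(level + 1), and a gene was counted as higher or lower at 1.5-fold. All 81 members passed the minimum mean RPKM of 5, 75 had a value in all 6 libraries, and 6 lacked one in 1 or more libraries. Missing values went by strain: RPL37A and RPL42A had none in AWRI796, RPL27A none in VL3, RPL1B and RPL33B none in R008, and RPL36B none in EC1118. Without scaling factors the median of all genes in VL3 shifted to 0.15 with SO2, against -0.01 with them, and the split of genes called higher and lower became 930 and 290, against 553 and 508.

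The copies of 11 pairs were treated as not safely told apart, by a minimum of sequence identity. The 22 members of these pairs, among them RPL1, RPL2, RPL4, RPL7, RPL8, RPL11, RPL14, RPL35, RPL41 and RPL42, were at least 95% identical over at least 80% of the coding sequence. How reads shared by both copies were assigned is not given in the sources used here, so a value of any of these 22 genes is uncertain, and the sum over both copies is given where a result turns on one. To show how few bases can tell copies apart, 3 pairs are given as coding sequence from the RefSeq R64 genome, 5′ to 3′, with the bases that differ between the copies in capitals. RPL41 encodes the shortest ribosomal protein, and its copies at chr4:130407-130484 and chr4:221724-221801 (both minus strand) differ at 1 of 78 bases.
RPL41A: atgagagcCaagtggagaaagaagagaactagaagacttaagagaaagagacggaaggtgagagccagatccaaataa
RPL41B: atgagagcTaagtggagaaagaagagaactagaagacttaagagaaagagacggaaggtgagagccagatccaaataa
RPL1 is the protein of the mobile stalk beside the exit site for transfer RNA, and its copies differ at 4 of 654 bases, of which 2 fall in the first 150 bases, chr16:135790-135939 and chr7:254641-254790 (both plus strand).
RPL1A: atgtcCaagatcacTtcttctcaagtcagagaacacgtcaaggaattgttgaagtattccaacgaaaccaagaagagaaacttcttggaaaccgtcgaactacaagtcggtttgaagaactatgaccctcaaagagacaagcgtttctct
RPL1B: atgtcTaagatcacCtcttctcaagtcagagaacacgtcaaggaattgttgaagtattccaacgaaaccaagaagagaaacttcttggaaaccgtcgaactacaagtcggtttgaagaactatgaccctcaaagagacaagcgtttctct
RPL9, a protein near the base of the P stalk, has copies that are 93.8% identical, just under the minimum, and differ at 36 of 576 bases, of which 9 fall in the first 150 bases, chr7:228180-228329 (minus strand) and chr14:499681-499830 (plus strand).
RPL9A: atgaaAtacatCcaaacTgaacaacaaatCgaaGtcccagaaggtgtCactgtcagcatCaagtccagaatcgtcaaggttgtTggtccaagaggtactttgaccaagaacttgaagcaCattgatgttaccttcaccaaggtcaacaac
RPL9B: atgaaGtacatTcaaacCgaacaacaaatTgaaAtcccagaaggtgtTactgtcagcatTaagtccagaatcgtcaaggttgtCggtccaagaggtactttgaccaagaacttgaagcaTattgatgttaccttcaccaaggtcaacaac
Of all stretches of 50 bases of the coding sequence, 81.0% were the same in both copies of RPL1, 69.0% in RPL41 and 14% in RPL9. The share was 6.93% in RPL8, which passes the identity minimum, and 14.2% in RPL40, which does not. The minimum thus does not track shared stretches exactly, and reads may also be shared outside the 11 pairs.

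In all 6 libraries the large subunit genes were among the abundant transcripts. Together they took 4.03% of the summed RPKM in R008, 8.86% in AWRI796 with SO2, 3.14% in AWRI796 without SO2, 4.44% in VL3 with SO2, 3.75% in VL3 without SO2 and 5.49% in EC1118. Leaving out RPL41A and RPL41B, an alternative chosen after seeing the data, gave 2.97% in R008, 6.84% in AWRI796 with and 2.21% without SO2. It gave 3.72% in VL3 with and 3.17% without SO2, and 4.23% in EC1118, so R008 then lay below VL3 without SO2. The median level of the members was 193 in R008, 474 in AWRI796 with SO2, 145 in AWRI796 without SO2, 232 in VL3 with SO2, 172 in VL3 without SO2 and 268 in EC1118. AWRI796 thus gave both the highest and the lowest library. The median of all genes kept lay between 47.8 and 49.7 in the 6 libraries.

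**Figure D1:**
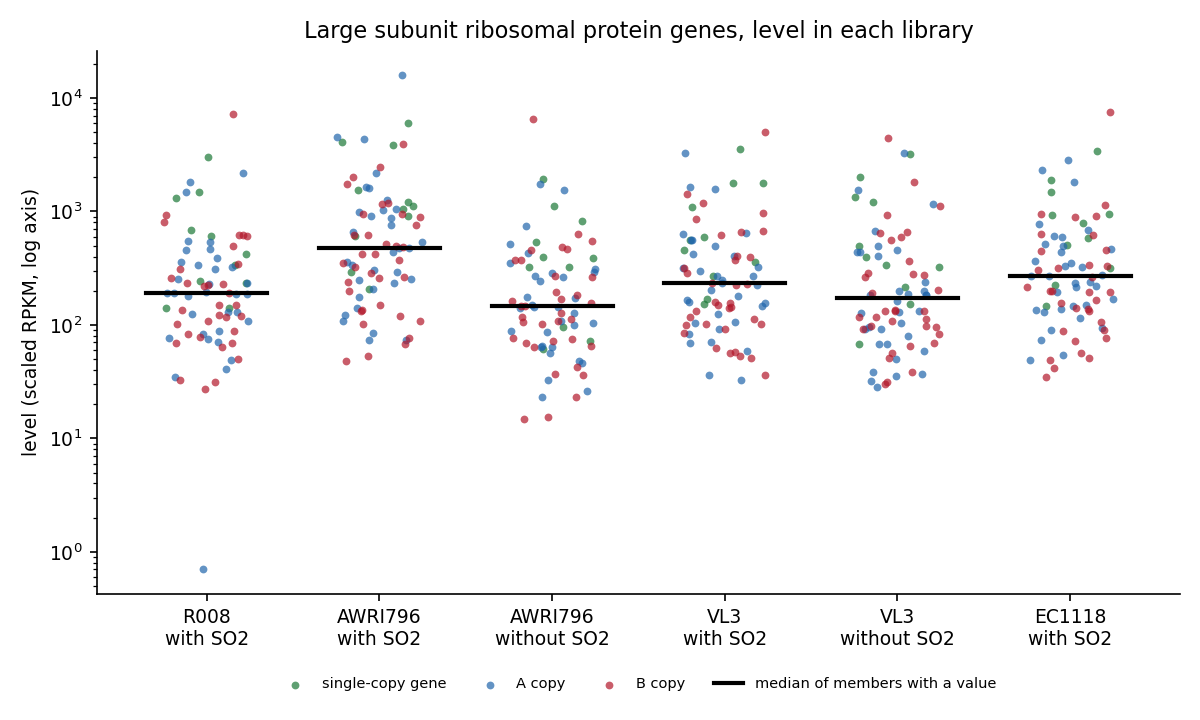
Level (scaled RPKM, log axis) of each large subunit gene in the 6 libraries, with single-copy genes in green, A copies in blue, B copies in red and the median of members with a value as a black bar. The median is highest in AWRI796 with SO2 (474) and lowest in AWRI796 without SO2 (145); RPL11A, listed at 0 in R008, is not drawn, and the lone low point there is RPL4A.

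The order of the genes was largely kept from library to library, with a rank correlation of member levels between 0.826 and 0.963 over the 15 pairs of libraries (75 members, a description). RPL41B had the highest mean level: 7248 in R008, 3912 in AWRI796 with and 6467 without SO2, 5032 in VL3 with and 4433 without SO2, and 7462 in EC1118. RPL41A came second, with 2163 in R008, 15803 in AWRI796 with and 1756 without SO2, 1584 in VL3 with and 1170.3 without SO2, and 2843 in EC1118. RPL10, the protein that joins last and completes the peptidyl transferase center, was next, with 3017 in R008, 6012 in AWRI796 with and 1945 without SO2, 3569 in VL3 with and 3228 without SO2, and 3430.0 in EC1118. After it came RPL15A, a core protein bound deep in the ribosomal RNA, and RPL38, a small surface protein. RPL15A stood at 1817 in R008, 4496 in AWRI796 with and 1559 without SO2, 3268 in VL3 with and 3264 without SO2, and 2312 in EC1118. RPL38 stood at 1486 in R008, 4061 in AWRI796 with and 1108 without SO2, 1798 in VL3 with and 1343 without SO2, and 1891 in EC1118. For RPL15A the AWRI796 library with SO2 was highest and that without SO2 lowest, and the same held for RPL38 and RPL10. At the low end, RPL22B was at 23.4 to 67.2, RPL17A at 23.1 to 85.4 and RPL26A at 26.0 to 74.0 over the 6 libraries. RPL8B, which has a near-identical copy, lay between 15.5 and 76.0.

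In AWRI796 nearly every large subunit gene stood higher with SO2. Of 79 members with a value, 75 were at least 1.5-fold higher, against 17.6% of all genes kept, and 71 were at least 2-fold higher, against 7.79%. RPL41B and RPL15B were at least 1.5-fold lower, against 15.4% of all genes kept, and RPL14B and RPL1B lay between the bounds. The median difference of the members was 1.66 (SD 0.67 over members) on the log2 scale, a 3.17-fold level, against -0.003 over all genes kept. Summed over the copies of each protein, all 44 proteins with a value were at least 1.5-fold higher. Their differences ran between 0.98 for RPL43 and 2.65 for RPL30, with a median of 1.68 and an SD of 0.41, so the sums lay closer together than the single genes did. Of the 58 members without a near-identical copy, 57 were higher.

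**Figure D2:**
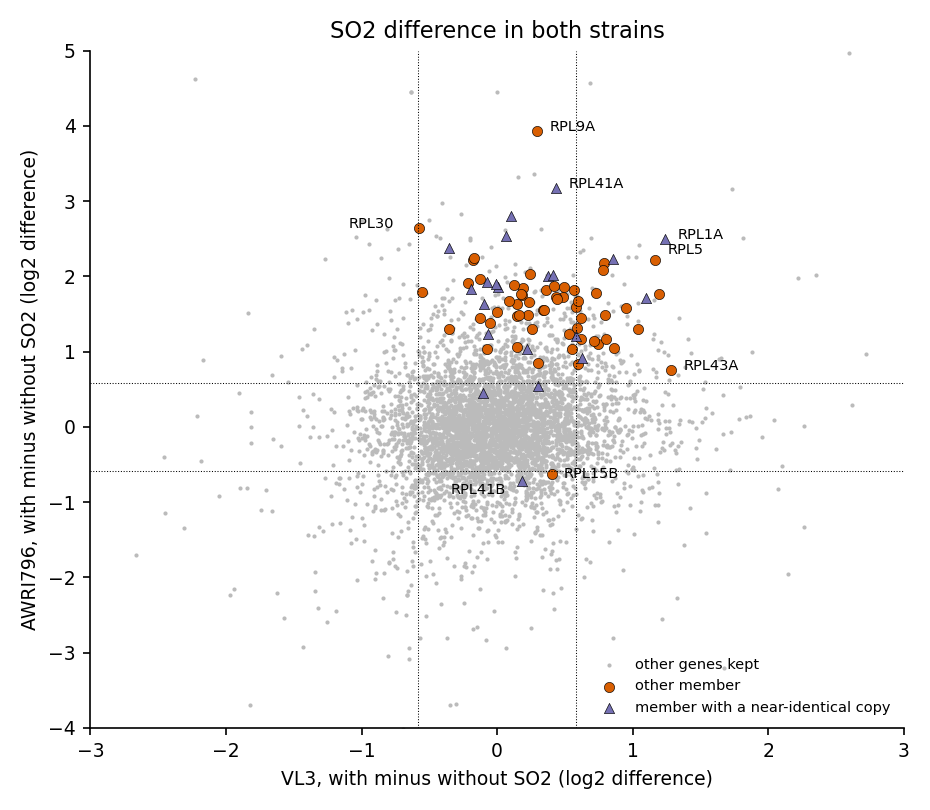
Log2 difference with minus without SO2 of each gene in VL3 (horizontal axis) and AWRI796 (vertical axis), for members without a near-identical copy (orange circles), members with one (purple triangles) and other genes kept (grey); dotted lines mark 1.5-fold. The members lie high on the AWRI796 axis (median 1.66) and spread around 0.32 on the VL3 axis; 8 other genes of 5014 lie outside the axes.

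Among the single-copy genes, whose reads cannot be split with a paralog, all 11 were at least 2-fold higher in AWRI796 with SO2. RPL30 (YGL030W, chr7:439091-439638), a protein known in yeast to repress splicing of its own transcript, had the largest difference: it stood at 604 with SO2 and 95.5 without in AWRI796, a difference of 2.65. RPL28 (YGL103W, chr7:310967-311927), the protein at which mutations give resistance to cycloheximide, stood at 3867 with SO2 and 818 without (2.24). RPL5 (YPL131W, chr16:303121-304014), which carries the ribosomal 5S RNA into the subunit together with RPL11, stood at 291 with SO2 and 61.6 without (2.22). Each of the 3 was thus more than 4-fold higher with SO2.

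RPL29, a dispensable surface protein, stood at 1542 with SO2 and 395 without in AWRI796 (1.96). RPL25, the protein at the tunnel exit that contacts factors meeting the new chain, stood at 1113 with SO2 and 324 without (1.78). RPL3, which reaches into the peptidyl transferase center, stood at 1058 with SO2 and 388 without (1.44). All 3 were over 2-fold higher with SO2. RPL38 had 1.87, RPL10 1.63 and RPL32 1.49 as their log2 differences. The smallest among single-copy genes was RPL39, a small protein that lines the exit tunnel, at 1203 with SO2 and 533 without (1.17).

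The P stalk is the flexible arm that holds elongation factors, built on RPP0 with the acidic proteins of RPP1 and RPP2. All 5 of its genes were at least 1.5-fold higher in AWRI796 with SO2. RPP0 stood at 207 with SO2 and 72.8 without (1.49) and RPP2B at 2021 with SO2 and 634 without (1.67). RPP1B, the least abundant, stood at 119 with SO2 and 65.4 without (0.85), the smallest difference of the stalk. RPP1A had a difference of 1.55 and RPP2A one of 1.71.

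The largest differences of all were in single copies of pairs. RPL9A (YGL147C, chr7:227754-228329) stood at 2181 with SO2 and 142 without in AWRI796, a 15.3-fold level (3.93), while its copy RPL9B stood at 1754 with SO2 and 549.8 without (1.67). RPL41A stood at 15803 with SO2 and 1756 without (3.17) and RPL41B at 3912 with SO2 and 6467 without (-0.72). RPL41A was thus among the highest and RPL41B the lowest of all 79 members. Summed over both copies, which 1 base tells apart, RPL41 was at 19716 with SO2 and 8222 without, a difference of 1.26. RPL4B, 1 of the genes of the protein that forms the narrow point of the tunnel, stood at 108 with SO2 and 14.7 without (2.80). RPL11A, the partner of RPL5 on the 5S RNA, stood at 4368 with SO2 and 748 without (2.54). These 4 were the highest besides RPL30, and all but RPL9A have a near-identical copy. Summed over copies, RPL4 differed by 2.17 and RPL11 by 2.48.

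At the low end of AWRI796 stood RPL41B, RPL15B, RPL1B, RPL14B and RPL43A. RPL15B was at 48.3 with SO2 and 74.8 without (-0.62), while its copy RPL15A, which held 98.9% of the RPL15 level with SO2, differed by 1.53. RPL1B was at 511 with SO2 and 374 without (0.45), against a difference of 2.49 for RPL1A, and the RPL1 sum differed by 1.68. RPL14B was at 53.2 with SO2 and 36.1 without (0.55). Its near-identical copy RPL14A differed by 1.90, and the RPL14 sum by 1.78. RPL43A was at 292 with SO2 and 173 without (0.76) and was the only 1 of the 5 counted as higher.

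AWRI796 with SO2 was the highest of the 6 libraries in 67 of the 75 members with all values, against 18.1% of all genes kept. AWRI796 without SO2 was the lowest in 49, against 20.8%, and VL3 without SO2 was the lowest in 21, against 22.6%. The summed level of 16 listed genes known for high expression in stationary phase also differed between the AWRI796 libraries. They summed to 5563 in AWRI796 with SO2 and 20458 in AWRI796 without SO2, to 11321 in R008, with 4739 to 5413 in EC1118 and VL3. None of the 16 was at 0, and UBI4, without a value in AWRI796, entered only the sums of R008, VL3 and EC1118. In AWRI796, 6 of the 14 listed genes that could be compared were at least 1.5-fold lower with SO2, against 15.4% of all genes kept. Another 3 were higher, against 17.6%, and 5 were within 1.5-fold, with a median difference of -0.18 over the 14. The SO2 difference of the sum thus does not stand for that of the list as a whole. Without SO2, 10 of 14 listed genes were at least 1.5-fold higher in AWRI796 than in VL3, against 19.6% of all genes kept. Another 2 were lower, against 19.2%, and the median difference was 1.33. With SO2, 6 were higher and 3 lower in AWRI796, against 15.9% and 12.3%, with a median of -0.06. The small heat shock genes HSP12 and HSP26 made up most of the sum in AWRI796: HSP12 stood at 2599.7 with SO2 and 12049 without, and HSP26 at 996 with SO2 and 6372 without. The part of these genes in the members' difference was not tested.

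In VL3 the large subunit genes stood a little higher with SO2 or close to their level without it. Of 80 members with a value, 24 were at least 1.5-fold higher, against 10.7% of all genes kept, and 0 were at least 1.5-fold lower, against 9.86%. The median difference was 0.32 (SD 0.42 over members) on the log2 scale, a 1.25-fold level, against -0.01 over all genes kept. With the scaling factors 63 members lay above 0 and 17 below, and without them 73 lay above and 7 below, so the direction of members near 0 depends on the scaling. Summed over copies, 11 of 45 proteins were at least 1.5-fold higher and 35 lay above 0.

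The highest differences in VL3 were those of RPL43A, RPL1A, RPL12B, RPL5 and RPL7A. RPL43A, a zinc-binding protein gene, stood at 225 with SO2 and 92.2 without (1.28). RPL5 stood at 153 with SO2 and 67.6 without (1.17), the highest single-copy gene. RPL12B, a gene of the protein that joins RPP0 at the base of the stalk, stood at 226 with SO2 and 98.3 without (1.19). All 3 were over 2-fold higher with SO2. RPL1A was at 316 with SO2 and 133 without (1.24) and RPL7A at 147 with SO2 and 68.3 without (1.10). Both have a near-identical copy, and RPL1 summed over copies differed by 0.15 and RPL7 by 0.61.

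The lowest differences in VL3 were those of RPL30, RPL23B, RPL2B, RPL33B and RPL40A. RPL30 was at 269 with SO2 and 400.4 without (-0.57), while it had the highest difference of a single-copy gene in AWRI796. RPL23B, of a protein at the interface with the small subunit, was at 405 with SO2 and 596 without (-0.56). RPL2B, of a protein at the peptidyl transferase center, was at 1424 with SO2 and 1824 without (-0.36). It has a near-identical copy, and RPL2 summed over copies differed by -0.28. No lowest member reached 1.5-fold. RPL33B stood at 103 with SO2 and 131 without (-0.35). RPL40A, whose product is made fused to ubiquitin, stood at 424 with SO2 and 493 without (-0.22). Of the single-copy genes 4 of 11 were at least 1.5-fold higher in VL3, namely RPL5, RPL39 (0.80), RPL32 (0.79) and RPL25 (0.73). Of the stalk genes, RPP2B (0.60) alone was past 1.5-fold.

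In VL3, A copies had a median difference of 0.51 and B copies one of 0.18, and the A copy had the larger difference in 27 of 34 pairs. In AWRI796 the medians were 1.71 for A copies and 1.63 for B copies, and the A copy had the larger difference in 19 of 33 pairs. Among pairs without a near-identical copy these counts were 18 of 23 in VL3 and 14 of 23 in AWRI796. No test was made, as each strain has 1 library per group and the letters name no common property.

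Across the members, the differences of the strains did not run together: over 78 members with both values, Pearson's r was -0.10 and Spearman's rho -0.18, against an r of 0.13 over the 5092 genes kept. These values are descriptions over genes and not tests. The difference in AWRI796 exceeded that in VL3 by at least 1.5-fold in 62 of 78 members, against 20.8% of all genes kept, with a median of 1.30. The reverse held for 2 members, against 19.6%. With 1 library per strain and SO2 level, this difference between strains could not be tested.

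A fit over both strains, with strain as a term, called no gene. limma (moderated test, Benjamini-Hochberg over 5092 genes) gave 0 members and 0 genes with an adjusted p under 0.05. At an unadjusted p under 0.05, 42 of 78 members were higher with SO2 and 0 lower, against 3.85% of all genes kept higher and 3.52% lower. The lowest adjusted p among members was that of RPL5, with a mean difference of 1.69 ± 0.35 (SE, limma adjusted p = 0.448). RPL1A followed with 1.87 ± 0.41 (SE, limma adjusted p = 0.522), and RPL7A and RPL12B had the same adjusted p. The fit leaves 1 residual degree of freedom, and strains are not labelled as replicates of one condition. That degree of freedom is the difference between the strains in their SO2 difference, so SE and p do not measure replicate noise. The SO2 term averages both strains, whose member medians were 1.66 in AWRI796 and 0.32 in VL3. It need not stand for a difference common to both. Without the filter on low values, 14 members were at an unadjusted p under 0.05.

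**Figure D3:**
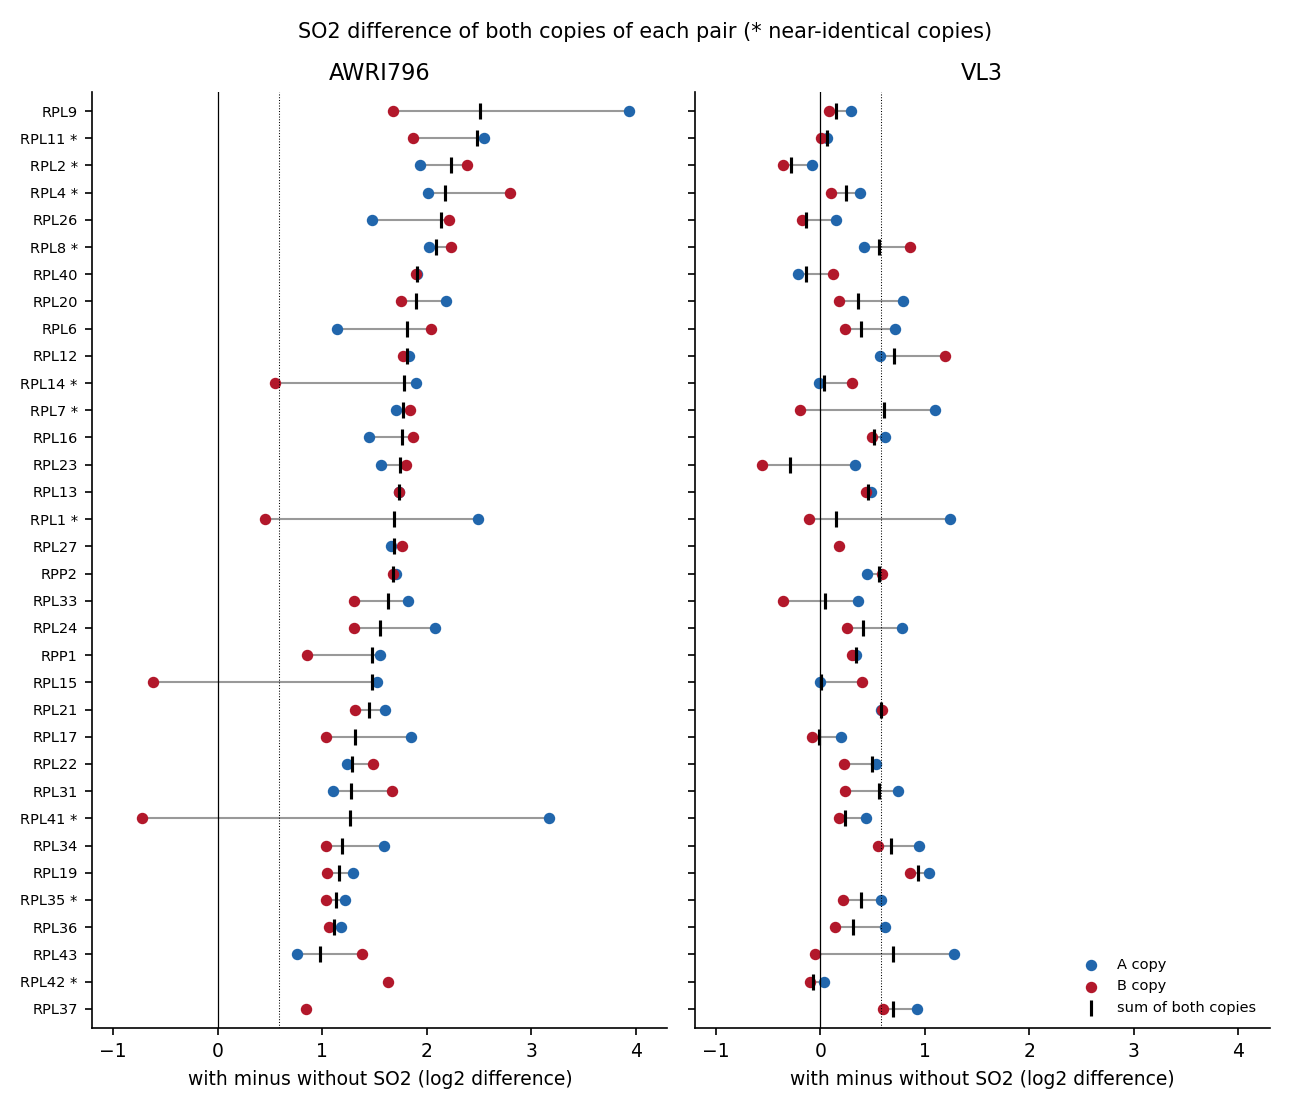
Log2 difference with minus without SO2 of the A copy (blue), the B copy (red) and the sum of both (black tick) for each of 34 pairs, in AWRI796 (left) and VL3 (right), ordered by the sum in AWRI796; an asterisk marks near-identical copies and the dotted line 1.5-fold. Every sum drawn for AWRI796 lies right of the dotted line (RPL37 and RPL42 have none), and the widest gaps between copies are those of RPL41, RPL9, RPL15 and RPL1.

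How a pair divides its transcripts between A and B is a ratio within a library and does not depend on the scaling. The range of the A share over the libraries had a median of 13.8 percentage points, and was under 10 points in 10 of 35 pairs and over 20 points in 9. Among pairs without near-identical copies the median range was 11.5 points, and among near-identical pairs 21.2. RPL15 was the most one-sided, with the A copy at 95.4% to 98.9%. RPP1 had its A copy at 86.8% to 91.4%, and RPP2 its A copy at 17.0% to 23.2%. In each library the A gene was thus the main source of RPP1 and the B gene that of RPP2.

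A few pairs were divided differently in AWRI796 with SO2 and without. The A copy of RPL41 held 80.2% with SO2 and 21.4% without in AWRI796, against a range of 20.9% to 27.6% over R008, VL3 and EC1118. The A copy of RPL9 held 55.4% with SO2 and 20.5% without, against a range of 24.9% to 32.8% over R008, VL3 and EC1118. For both pairs AWRI796 with SO2 stood apart from the other 5 libraries. The A copy of RPL1 held 75.9% with SO2 and 43.3% without in AWRI796, 26.9% with and 12.6% without in VL3, and 68.5% in EC1118. The A share of RPL1 thus varied between strains as well as with SO2. RPL41 and RPL1 have near-identical copies, so their A shares are uncertain. The part of read assignment in these shares was not tested. Smaller shifts were those of RPL17, of the tunnel wall, at 39.3% with SO2 and 26.5% without, and of RPL24, of a bridge to the small subunit, at 38.6% with SO2 and 26.7% without.

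In VL3 the A copy of RPL43 held 66.6% with SO2 and 44.1% without, so that VL3 without SO2 was the lowest of the 6 libraries. The A copy of RPL7 held 72.2% with SO2 and 51.2% without. The A copy of RPL23 held 36.6% with SO2 and 23.7% without, and that of RPL33 held 61.9% with SO2 and 49.6% without. RPL43, RPL23 and RPL33 have no near-identical copy.

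**Figure D4:**
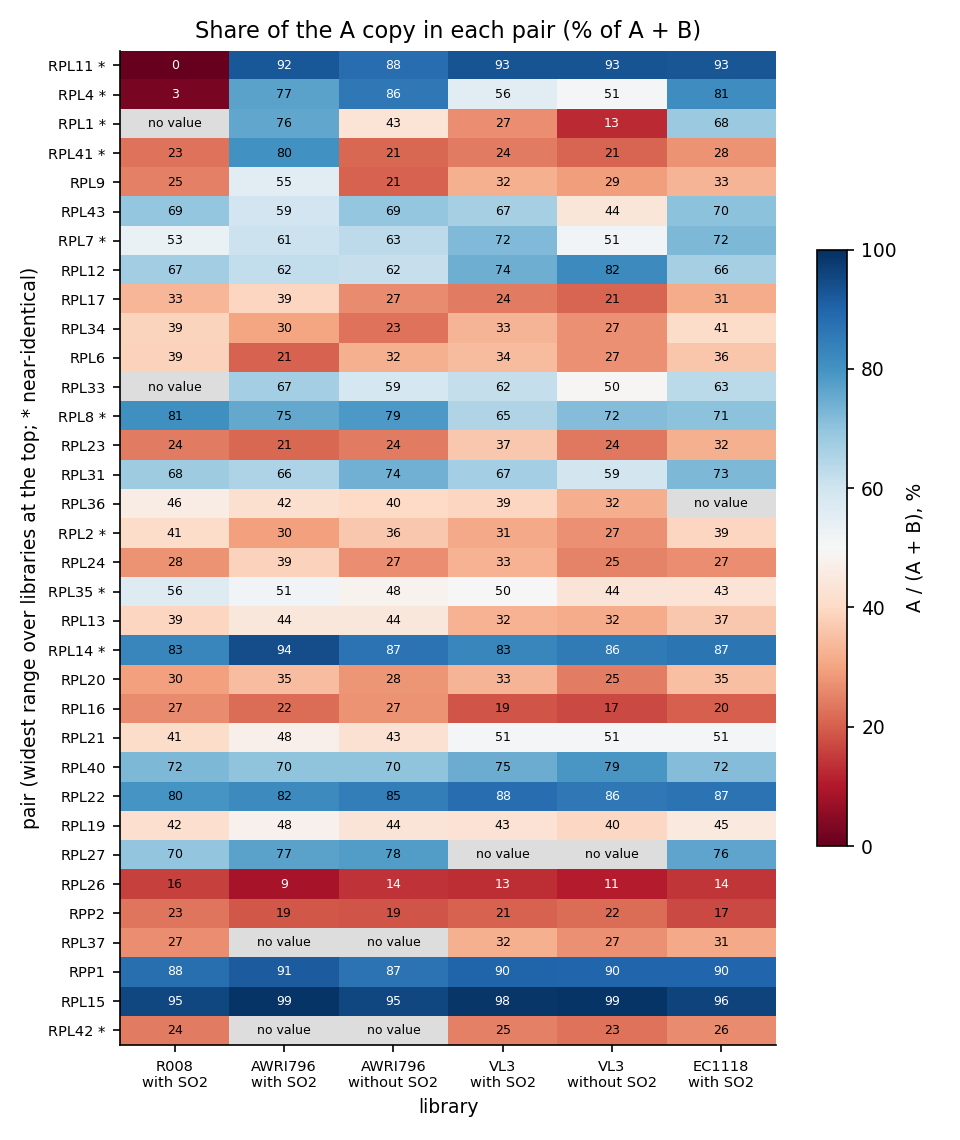
Share of the A copy in the summed level of each of 34 pairs (percent, colour and printed value) in the 6 libraries, with the pairs of widest range at the top; an asterisk marks near-identical copies and grey a copy without a value. RPL11 and RPL4 in R008, and RPL41 and RPL9 in AWRI796 with SO2, stand apart from the other libraries in their rows.

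Set against VL3, AWRI796 was higher with SO2. Without SO2 the sign of the members' median depended on the scaling. With and without scaling factors, this median lay below that of all genes. With SO2, 58 of 78 members were at least 1.5-fold higher in AWRI796, against 15.9% of all genes kept, and 2 were lower, against 12.3%. Their median difference was 0.91. Without SO2, 28 members were at least 1.5-fold lower in AWRI796, against 19.2%, and 7 higher, against 19.6%, with a median of -0.31. Without scaling factors the median without SO2 turned to 0.056, with 17 members lower and 17 higher, against 8.54% and 36.1% of all genes kept, whose median moved to 0.34, against -0.02 with the factors. With SO2 the median was 1.04 without scaling factors, where that of all genes was 0.12. RPL3 stood at 1058 in AWRI796 and 1102 in VL3 with SO2, and at 388 in AWRI796 and 1204 in VL3 without SO2. RPL25 was higher in AWRI796 at both SO2 levels, with 1113 in AWRI796 and 359.6 in VL3 with SO2, and 324 in AWRI796 and 216 in VL3 without SO2.

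In the limma fit of AWRI796 against VL3 over both SO2 levels, 17 genes were called and 0 of them were members, against 0.157% of all genes kept called higher and 0.177% lower. At an unadjusted p under 0.05, 6 of 78 members were higher and 2 lower, against 6.93% and 5.05% of all genes kept. Without scaling factors 16 members were higher and 0 lower, against 11.5% and 1.92% of all genes kept, so this count depends on the scaling. Members at least 1.5-fold higher then numbered 36, against 21 with the factors, and their median was 0.55, against 0.30. The median of all genes in this fit was 0.24 without the factors and -0.01 with them. The largest differences were those of RPL41A at 1.95 ± 0.71 (SE, limma adjusted p = 0.336) and RPL1A at 1.72 ± 0.41 (SE, limma adjusted p = 0.180). Both have a near-identical copy. The RPL41 sum was 19716 in AWRI796 and 6616 in VL3 with SO2, and 8222 in AWRI796 and 5603 in VL3 without SO2. The RPL1 sum was 2124 in AWRI796 and 1175 in VL3 with SO2, and 660.1 in AWRI796 and 1058 in VL3 without SO2. RPL1 was thus lower in AWRI796 without SO2 when its copies were summed. RPL12B, at 1.18 ± 0.33 (SE, limma adjusted p = 0.233), RPL31A of the tunnel exit, at 1.11 ± 0.34 (SE, limma adjusted p = 0.258), and RPL25 followed. The lowest member in the same fit was RPL4B at -1.22, followed by RPL1B at -1.03, RPL3 at -0.85 and RPL14B at -0.80. RPL3 is a single-copy gene, while RPL4B, RPL1B and RPL14B have a near-identical copy. The RPL4 sum was 470 in AWRI796 and 225 in VL3 with SO2, and 104 in AWRI796 and 189 in VL3 without SO2. Which gene models served each strain is not given in the sources used here, so a difference between strains may hold differences in mapping, which was not tested.

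The vineyard strain R008 stood lower than the mean of the enological strains with SO2. Of 75 members, 42 were at least 1.5-fold lower in R008, against 5.79% of all genes kept, and 2 were higher, against 6.69%; the median difference was -0.62. This rests in large part on AWRI796. Without that library, 16 of 77 members were lower and the median was -0.30, against 0.002 over all genes. The share of all genes at least 1.5-fold lower was not computed without that library. Against AWRI796 alone 67 of 77 members were lower in R008 (12.1% of all genes kept), against VL3 17 of 78 (7.21%) and against EC1118 19 of 78 (9.4%). These 3 comparisons share the R008 library.

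**Figure D5:**
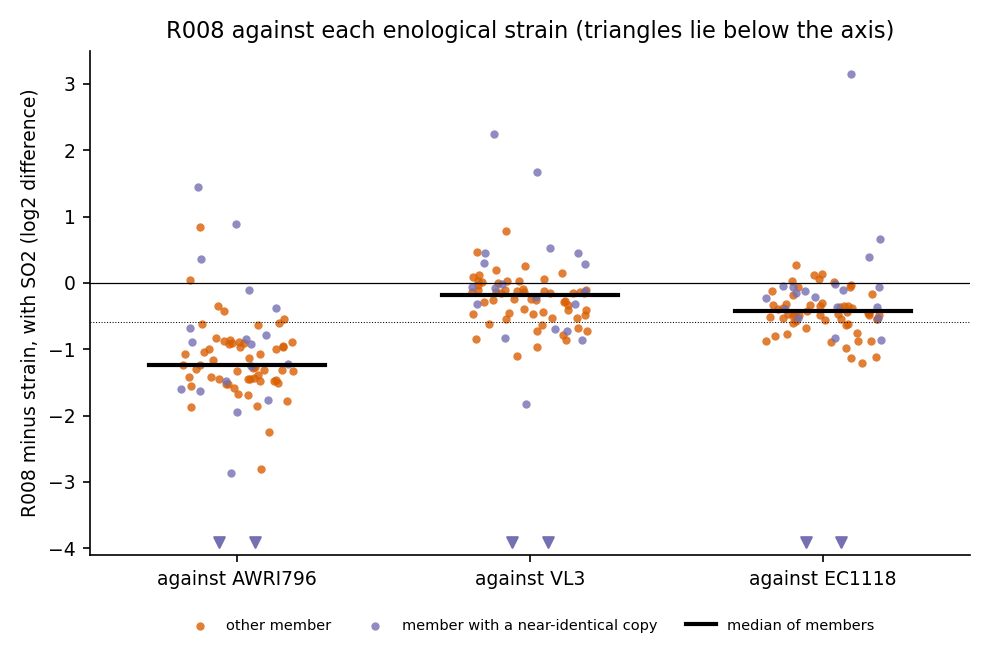
Log2 difference of R008 minus AWRI796, VL3 and EC1118, all with SO2, for members without a near-identical copy (orange) and with one (purple), with the median of the members as a black bar; the dotted line marks 1.5-fold lower. The medians are -1.24, -0.19 and -0.43; triangles at the bottom are RPL4A and RPL11A, which lie below the axis, and RPL11A is listed at 0 in R008.

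By limma, 2 members were called in R008, both lower, against 0.14% of all genes kept called lower and 0.0399% called higher. At an unadjusted p under 0.05, 9 of 75 members were lower and 0 higher, against 1.42% and 1.74% of all genes kept. RPL11A (YPR102C, chr16:731224-731748) was listed at 0 in R008, against 4368 in AWRI796, 1627 in VL3 and 1806 in EC1118, all with SO2 (limma adjusted p = 4.04e-06). Being listed at 0, it has no fold. RPL4A (YBR031W, chr2:300166-301254) stood at 0.705 in R008, 362 in AWRI796, 126 in VL3 and 215 in EC1118 with SO2, a difference of -6.98 ± 0.50 (SE, limma adjusted p = 5.23e-05). Each has a near-identical copy, which was not higher in R008. RPL11B was at 108 in R008, 370.0 in AWRI796, 118 in VL3 and 139.7 in EC1118, and RPL4B was at 27.4, 108, 99.5 and 50.8 in the same 4 libraries. The A copy thus held 0% of RPL11 and 2.5% of RPL4 in R008, against 92.2% and 77.0% in AWRI796 with SO2. RPL5, which enters the subunit with RPL11, stood at 140.2 in R008, 291 in AWRI796, 153 in VL3 and 146 in EC1118. Whether R008 lacks RPL11A and RPL4A transcripts, or its reads were not placed on these genes, was not tested. Without the filter on low values neither was called (limma adjusted p = 0.0796 for RPL11A and 0.225 for RPL4A).

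Toward the other end of this comparison stood RPL1A, RPL15B, RPL41B and RPL7B. RPL1A was at 1497 in R008, 1613 in AWRI796, 316 in VL3 and 168 in EC1118, while RPL1B had no value in R008, so how reads of both copies were divided there cannot be seen. With all libraries RPL1A was not called (limma adjusted p = 1.00), and it was called only when AWRI796, whose level was like that of R008, was left out (limma adjusted p = 0.0356). RPL15B, the only 1 of these 4 without a near-identical copy, was at 88.0 in R008, 48.3 in AWRI796, 50.9 in VL3 and 87.5 in EC1118. The lowest besides RPL11A, RPL4A and RPL4B were RPL9A (-1.39) and RPL25 (-1.32). All 11 single-copy genes and all 5 stalk genes lay below 0 against the mean of the enological strains, and 7 and 3 of them were at least 1.5-fold lower.

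Yeast has few introns, and ribosomal protein genes hold many of them: 53 of the 81 members had an intron in the R64 annotation, 2 of them with 2 introns, and 28 had none. Members without an intron stood higher in every library, with a median of 1050.0 against 336 for members with an intron in AWRI796 with SO2, and 309 against 116 in AWRI796 without SO2. RPKM values are scaled for gene length, and it is unknown whether that length took in the introns. An intron can be longer than the coding sequence, as in RPL39, with 386 bases against 156. The part of this length in the gap between these levels was not tested. The differences with SO2 in AWRI796 had a median of 1.59 for members with an intron and 1.80 for those without, and in VL3 a median of 0.30 with an intron and 0.36 without. Whether reads of unspliced transcripts were counted is not given in the sources used here.

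Matches to 4 sequence motifs were counted on both strands, each on its own so that matches may overlap, in the 500 bases before the start codon of the 81 members and of 6006 genes of the R64 genome. The Rap1 motif ACCCNNACA was in 36 members (44.4%), against 5.46% of all windows and 32.1% of those of the small subunit genes. The motif of Abf1, another general regulator, was in 7 members (8.64%), against 18.1%. The motifs AAAATTTT, known as RRPE, and GATGAG, known as PAC, both found before many ribosome assembly genes, were in 13 (16%, against 12.4%) and 18 members (22.2%, against 28.2%). A match is a string of letters and no shown site of binding. Members with a Rap1 match had a median difference of 1.73 in AWRI796 and 0.24 in VL3, and those without a match 1.63 in AWRI796 and 0.42 in VL3.

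Windows of 59 bases are printed to set matches before members with the largest differences in AWRI796 beside matches before members with the smallest. The first 5 are the members with a match and the largest differences with SO2, and the last 2 are those with a match and the smallest. They were chosen after the values were seen, are read 5′ to 3′ on the strand of the gene in R64, and carry the match to either strand in capitals. They lie at chr7:228606-228664 (minus strand), chr9:316329-316387, chr7:310678-310736 and chr7:555503-555561 (plus strand), chr13:754566-754624 and chr4:222112-222170 (minus strand) and chr7:254305-254363 (plus strand).
RPL9A: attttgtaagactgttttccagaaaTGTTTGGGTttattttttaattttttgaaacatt
RPL2B: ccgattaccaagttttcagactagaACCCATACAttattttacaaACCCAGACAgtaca
RPL28: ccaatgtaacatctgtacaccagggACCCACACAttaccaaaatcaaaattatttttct
RPL26B: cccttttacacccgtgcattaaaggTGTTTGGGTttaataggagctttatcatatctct
RPL20A: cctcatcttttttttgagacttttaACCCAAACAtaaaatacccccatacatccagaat
RPL41B: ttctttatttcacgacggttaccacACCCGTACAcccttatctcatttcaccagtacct
RPL1B: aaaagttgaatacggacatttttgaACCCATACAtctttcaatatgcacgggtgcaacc
The RPL2B window holds 2 matches. RPL26B stood at 758 with SO2 and 163 without in AWRI796 (2.21) and RPL20A at 474 with SO2 and 104 without (2.18), against -0.72 for RPL41B and 0.45 for RPL1B. Of the copies of these genes, RPL26A and RPL20B held 1 match each, and RPL41A, RPL1A, RPL9B and RPL2A held none. RPL2B, RPL41B and RPL1B have a near-identical copy, so their places at the high and low ends are uncertain. Summed over copies, RPL2 differed by 2.23, RPL41 by 1.26 and RPL1 by 1.68 in AWRI796.

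Small subunit genes were also counted. Of 55 small subunit genes, 52 were at least 1.5-fold higher in AWRI796 with SO2, against 17.6% of all genes kept, with a median of 1.67. In VL3, 10 of 56 were higher, against 10.7%, and 1 was lower, against 9.86%, with a median of 0.35. Factors that build the large subunit had smaller differences. Of 71 such genes, 13 were higher and 2 lower in AWRI796, with a median of 0.24. The share of higher genes was close to the 17.6% of all genes kept, of which 15.4% were lower. In VL3, 10 of 70 were higher and 2 lower, against 10.7% and 9.86% of all genes kept, with a median of 0.20. NOG1, a GTPase of subunit assembly, stood at 76.9 with SO2 and 28.7 without in AWRI796 (1.39), and CIC1, an assembly protein, at 49.1 with SO2 and 20.7 without (1.21). The lowest were BUD20 (-0.68), an export factor of the large subunit, and IPI1 (-0.67), a part of a processing complex. No test of these lists was made.

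Among 12 chaperones of ribosomal proteins and new chains, 5 were at least 1.5-fold higher and 1 lower in AWRI796 with SO2, and 2 were higher and 1 lower in VL3. The shares of all genes kept were 17.6% and 15.4% in AWRI796, and 10.7% and 9.86% in VL3. SQT1, the chaperone of RPL10, was at 60.5 with SO2 and 74.8 without in AWRI796 (-0.30), and ACL4, here under its systematic name YDR161W and the chaperone of RPL4, was at 32.1 with SO2 and 53.4 without (-0.72). SYO1 (YDL063C), which carries RPL5 and RPL11, was at 26.4 with SO2 and 19.4 without (0.42), and RRB1, the chaperone of RPL3, at 71.5 with SO2 and 55.8 without (0.35). Summed over copies, RPL10, RPL4, RPL5, RPL11 and RPL3 were higher with SO2 by at least 1.44 on the log2 scale. ZUO1 (1.11) and SSZ1 (0.93) form a ribosome-bound chaperone. EGD1 (1.01) and EGD2 (0.97) are subunits of the nascent polypeptide-associated complex, and BTT1 (0.18) is a further subunit. TSR2 (0.99), YAR1 (0.23) and TSR4 (-0.18) bind proteins of the small subunit.

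Of 12 regulators of these genes, 0 were at least 1.5-fold higher and 2 were lower in AWRI796 with SO2, and 1 was higher and 1 lower in VL3. The shares of all genes kept, higher and lower, were 17.6% and 15.4% in AWRI796 and 10.7% and 9.86% in VL3, so the counts of lower genes lay near them. CRF1, a corepressor of ribosomal protein genes under TOR, stood at 104 with SO2 and 326 without in AWRI796, a difference of -1.64, and at 82.2 with SO2 and 154 without in VL3 (-0.90). CRF1 was highest in R008, at 372, and next in AWRI796 without SO2. TOR2, a TOR kinase, stood at 14.3 with SO2 and 25.9 without in AWRI796 (-0.82), with a difference of 0.65 in VL3. RAP1 (-0.11), FHL1 (-0.12), IFH1 (-0.42) and SFP1 (0.18) were within 1.5-fold in AWRI796. Of 10 translation elongation factor genes 8 were higher in AWRI796, with a median of 0.92, and 3 of 9 in VL3, with a median of 0.23. YEF3, the fungal elongation factor, stood at 2232 with SO2 and 1106 without in AWRI796 (1.01). EFT2, a gene of the factor that moves the ribosome along the transcript, stood at 456 with SO2 and 103 without (2.14) and has a near-identical copy, EFT1 (1.58).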

How the data were processed

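The authors deposited 1 table of RPKM values with a column for each of the 6 libraries, per the file headers. The labels' protocols state removal of ribosomal RNA and whole transcriptome libraries for the SOLiD 4 sequencer. No aligner, counting tool, genome build or gene model is given in the sources used here. Sequencing depth is unknown, so no counting interval is given.

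From the deposited RPKM, 8 rows with repeated names were dropped and 2 genes were split off another line. Values were divided by median-of-ratios factors from 4993 genes and used as log2(scaled RPKM + 1). Genes with a mean RPKM of at least 5 were kept (5335). Within a strain, sizes were counted without a test. limma 3.58.1 in R 4.3.3 (lmFit, eBayes with trend, two-sided, Benjamini-Hochberg at 0.05) was fitted to AWRI796 and VL3 with strain and SO2 as terms (1 residual degree of freedom), and to R008 against 3 enological strains with SO2 (2 residual degrees of freedom), assuming that the single R008 library varies like the others. Nothing in the labels makes the strains replicates. In the fit of AWRI796 and VL3, the residual for both terms is the difference between the strains in their SO2 difference, not replicate noise. A check of the fits on simulated data used independent noise and changes larger than nearly all member differences. It therefore says nothing about differences of the size of most members. Pairs with near-identical copies come from BLAST 2.17.0 searches of the R64 coding sequences, and table coordinates equalled R64 for all 81 members.

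Members and gene lists were chosen with earlier results of these data known. Genes named are the single-copy and stalk members, the 5 highest and 5 lowest of each comparison and of the mean level, the pairs whose A share moved most, called members, and up to 12 genes of each other list; 1 of them is left out of the text and is not reported here. Alternatives tried were other scalings, pseudocounts and filters, eBayes without trend, single libraries left out, and near-identical copies left out.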

Additional observations from a re-analysis of the deposited data

How the results depend on the processing

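The count of members higher in AWRI796 and in VL3 with SO2 kept within 1.5 times of its value under each other scaling, pseudocount and filter tried, and with near-identical copies left out. The median difference in AWRI796 became 1.54 after quantile normalization, and that in VL3 0.49 without scaling factors, where 35 members were higher. All genes in VL3 shifted too: without the factors their median was 0.15, against -0.01, and 930 of 5150 were higher, against 553. Summed over copies, an alternative chosen after seeing the data, 44 proteins were higher in AWRI796 and 11 in VL3. For AWRI796 against VL3, genes called numbered 10 after quantile normalization and 0 without the filter, against 17. In R008 the median was -0.86 without scaling factors, where that of all genes was -0.21, against -0.62 and 0.01 with the factors. Without the filter 0 members and 26 genes were called there. Leaving out each enological library in turn gave medians between -0.84 and -0.30, where those of all genes lay between 0.002 and 0.006. Between 16 and 54 members were then at least 1.5-fold lower, and the lowest count came without AWRI796. The share of all genes past this bound was not computed for these settings. In VL3, 4 members just past 1.5-fold fell short of it at a pseudocount of 5. The median of AWRI796 against VL3 at each SO2 level under other scalings was an alternative chosen after seeing the data: without scaling factors it was 0.056 without SO2, against -0.31, and 1.04 with SO2, against 0.91. In VL3, 7 members lay below 0 without scaling factors, against 17 with them. No paired analysis was possible because each group has 1 library, so that replicate numbers pair nothing beyond the strain term already fitted. The unknown depth limits what the low values can show.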
